A study of Mus musculus with 9 samples.

Results

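The GATA factors and their FOG partners were examined at their own gene loci. The family comprises 8 genes, Gata1, Gata2, Gata3, Gata4, Gata5, Gata6, Zfpm1 and Zfpm2, of 22350 annotated protein-coding genes on chromosomes 1 to 19 and X. A locus was defined as the annotated gene body plus 50 kb on each side in mm9, and every ATAC-seq peak whose midpoint fell in that window was counted. A peak within 1 kb of any annotated transcription start site (TSS) was called a promoter peak and every other peak a distal peak.

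GATA factors are zinc finger transcription factors that bind DNA sites with the core letters GATA. Gata1, Gata2 and Gata3 are best known from blood, endothelium and sensory or neural development, while Gata4, Gata5 and Gata6 act in heart, endoderm and smooth muscle. Zfpm1 and Zfpm2 encode FOG1 and FOG2, multi-zinc-finger proteins that bind GATA factors rather than DNA and recruit corepressors such as the NuRD complex. FOG2 is the partner of Gata4 in the heart, where both are needed for normal cardiac development.

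The study profiled open chromatin by ATAC-seq, in which a transposase cuts accessible DNA, in GFP+ DAPI- cells sorted from pooled mouse embryos at E9.5, to ask how accessibility depends on Tbx1, a T-box transcription factor gene of the pharyngeal apparatus. All embryos were on a Swiss Webster background and carried 1 copy of Rosa26-GFPflox/+, a reporter that Cre recombinase switches on for good. There were 3 groups with 3 libraries each. Mesp1-Cre Ctrl embryos were Mesp1Cre;Rosa26-GFPflox/+, so that GFP marked early mesoderm and its descendants. Tbx1-Cre Ctrl embryos were Tbx1Cre;Rosa26-GFPflox/+ and already carried a Cre insertion in 1 allele of Tbx1, with GFP in descendants of Tbx1-expressing mesoderm, endoderm and ectoderm. Tbx1-Cre cKO embryos were Tbx1Cre/flox;Rosa26-GFPflox/+, in which the other allele was floxed and lost in the same lineage. Ctrl and cKO embryos came from different crosses, so mother and genotype cannot be told apart. The labels name a tissue that includes the heart, and for the Tbx1-Cre groups also the back, whereas the methods of the study describe pharyngeal tissue dissected free of the heart. The reporter marks a mixture of cell types, so that fewer cells of a type and less open chromatin per cell cannot be told apart.

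The lists were of unequal length, which bears on every count at the GATA and FOG loci. Tbx1-Cre Ctrl libraries held 43298 to 49490 peaks, cKO libraries 19772 to 29251 and Mesp1-Cre Ctrl libraries 25485 to 42650. The longest Mesp1-Cre Ctrl list, that of replicate 1, has a length that the sample summary of the study does not give, whereas the lengths of the other lists are given there, so that the comparisons with Mesp1-Cre Ctrl are also stated without it. Distal peaks accounted for most of this, with a mean 64.4% lower in cKO libraries than in those of Tbx1-Cre Ctrl, against 16.8% for promoter peaks. The lists give positions without reads or scores, so depth is unknown, and the absence of a call does not measure how closed the chromatin was. Among marker lists, endothelial markers had a peak at 2 of 5 promoters, Kdr and Tek, in each Tbx1-Cre Ctrl library, at 1 of 5, Kdr, in each cKO library and at 1 to 2 of 5 in Mesp1-Cre Ctrl, with Cdh5, Pecam1 and Tie1 at 0 throughout. Endoderm and epithelium markers had 2 to 4 of 6 in Tbx1-Cre Ctrl, 1 of 6 in each cKO library and 1 to 4 of 6 in Mesp1-Cre Ctrl. Mesoderm markers had 4 of 5 in each Tbx1-Cre Ctrl library, 2 to 3 of 5 in cKO and 3 to 4 of 5 in Mesp1-Cre Ctrl. Otic and neural markers had 2 to 3, 0 to 1 and 0 to 2 of 5 in the same order, with Sox10 at 0 throughout. Cardiomyocyte markers had 1, 0 to 1 and 0 of 5, with Tnnt2, Myh6, Myh7 and Nppa at 0 in all 9 libraries. The part of these cell types in the values at the GATA and FOG loci was not tested.

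Summed over the 8 windows, Tbx1-Cre Ctrl libraries held 55, 38 and 38 peaks, cKO libraries 21, 19 and 16, and Mesp1-Cre Ctrl libraries 40, 21 and 32. The Tbx1-Cre groups did not overlap, with means of 43.7 ± 9.81 in Ctrl and 18.7 ± 2.52 in cKO (SD, n = 3 each), a value 57.3% lower in cKO. Distal peaks numbered 39, 24 and 22 in Tbx1-Cre Ctrl and 11, 11 and 5 in cKO, 68.2% lower in the mean, against 64.4% in the whole lists. Per 10000 distal peaks of the library the mean was 10.3% lower in cKO, and per 10000 peaks of both classes it was 40.0% lower. With lists of equal length, the 19772 widest peaks of every library, the distal mean was higher in cKO, at 7.0 against 6.33 peaks. Promoter peaks numbered 16, 14 and 16 in Tbx1-Cre Ctrl and 10, 8 and 11 in cKO, 37.0% lower, against 16.8% in the whole lists. Per 10000 peaks of both classes the promoter mean was higher in cKO, at 4.10 against 3.29, and with equal lists it was 10.7% lower. Promoter peaks made up 33.9% to 36.1% of the Tbx1-Cre Ctrl lists but 49.3% to 63.0% of the cKO lists. The promoter count was not scaled to promoter peaks alone. Once the counts of all peaks were scaled to 10000 peaks of each library, the 3 Tbx1-Cre Ctrl values were 11.1, 8.78 and 8.08 and the cKO values 7.18, 7.90 and 8.09, and the groups overlapped. With equal lists, Tbx1-Cre Ctrl held 20, 12 and 15 peaks and cKO 14, 16 and 16. The cKO mean was thus 57.3% lower in the deposited lists, 17.2% lower per 10000 peaks and 2.13% lower with lists of equal length.

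**Figure D1:**
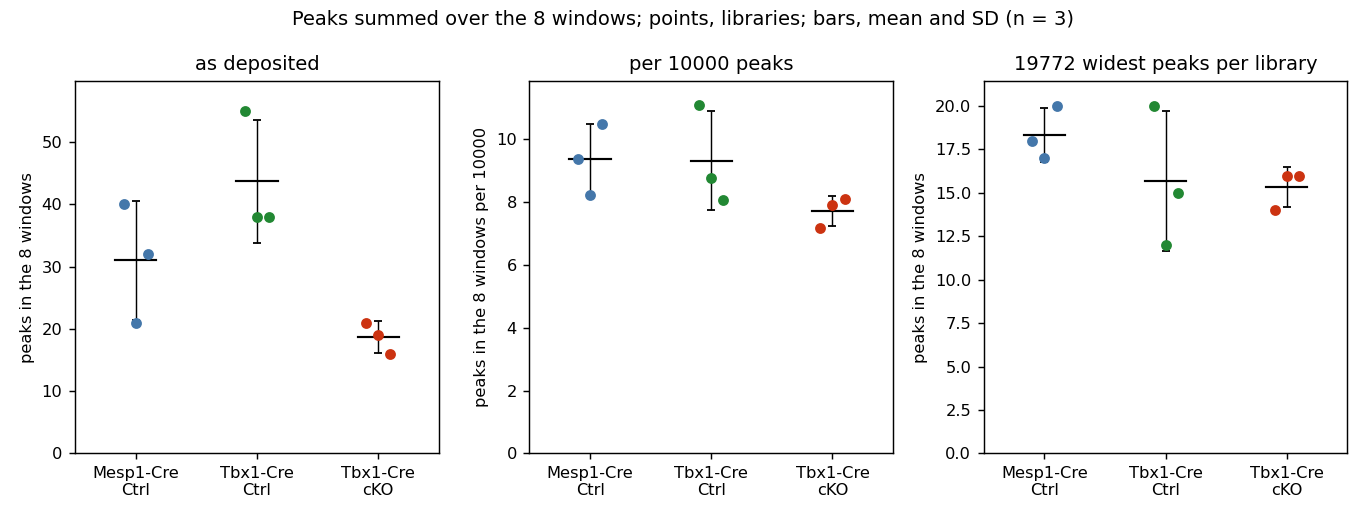
Peaks summed over the windows of the 8 GATA and FOG genes (y axis, peaks, or peaks per 10000 in the middle panel) in each library of the 3 groups (x axis); bars show mean and SD. In the deposited lists the cKO libraries lie between 16 and 21, below the Tbx1-Cre Ctrl libraries at 38 to 55, while with 19772 peaks per library both groups lie between 12 and 20.

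Per gene, the mean was compared with an exact two-sided permutation test, adjusted by the Benjamini-Hochberg procedure over all genes with a peak. With 3 libraries against 3 there are 20 relabellings and the smallest p is 0.1, so that 0.05 cannot be reached. Groups were called not overlapping when every library of one lay beyond every library of the other. Leaving out a library can thus add such a call but never remove it. Between Tbx1-Cre cKO and Ctrl this held, with cKO lower, for 5 of the 8 members, Gata2, Gata3, Gata4, Gata6 and Zfpm2 (exact permutation p = 0.1 and adjusted p = 0.364 for each), and for 27.3% of all 19951 genes tested. The count in the other direction was 0 of 8 members, against 0.16% of all genes. The difference in means ran from -0.333 peaks at Gata1 to -6.0 at Zfpm1, and its median over all genes was -1.33. Per 10000 peaks, 0 of 8 members stood apart in either direction, while 5.17% of all genes were lower and 31.9% higher in cKO. With equal lists it was again 0 of 8, with 1.28% of all genes lower and 4.21% higher.

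**Figure D2:**
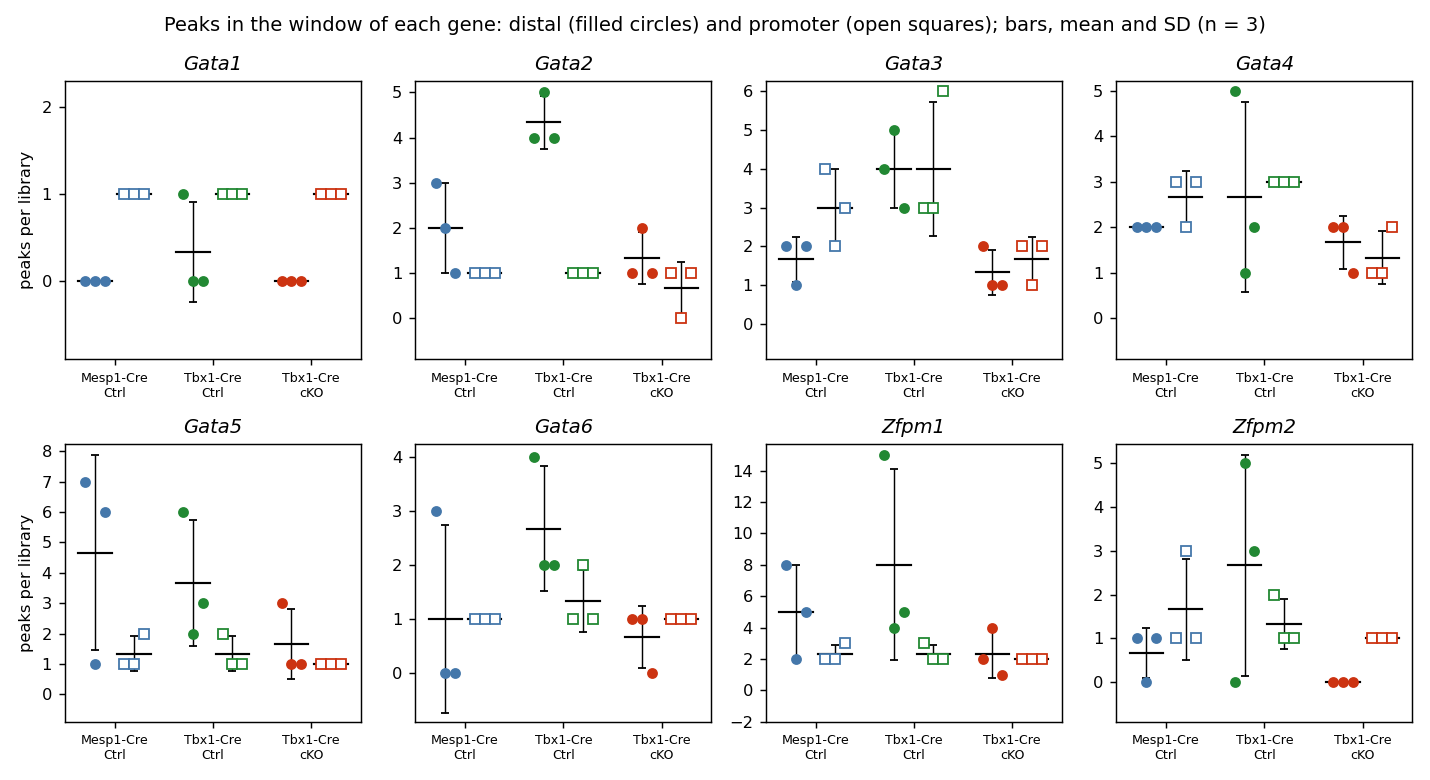
Peaks in the window of each gene (y axis, peaks per library) in the 3 groups (x axis), with distal peaks as filled circles and promoter peaks as open squares, 1 symbol per library; bars show mean and SD (n = 3). Distal peaks at Gata2 number 4 to 5 in Tbx1-Cre Ctrl and 1 to 2 in cKO, and at Zfpm1 a single Tbx1-Cre Ctrl library reaches 15.

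For distal peaks alone, 3 of 8 members were lower in cKO without overlap, Gata2, Gata3 and Gata6 (exact permutation p = 0.1, adjusted p = 0.383 for each), as were 26.0% of all genes. For promoter peaks alone it was 2 of 8, Gata3 and Gata4 (exact permutation p = 0.1, adjusted p = 1.0 for each), against 8.32% of all genes. The groups thus stood apart in distal peaks only at Gata2 and Gata6, in promoter peaks only at Gata4, in both classes at Gata3, and only in their sum at Zfpm2. When several peaks of a library in 1 merged region were counted once, 4 of 8 members stood apart, Gata2, Gata3, Gata4 and Gata6, against 28.9% of all genes, and Zfpm2 did not.

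To see where these peaks lay, the peaks of the 9 libraries were merged into regions wherever they overlapped by at least 1 bp. Where a library had several peaks in a region, their widths were summed. The windows held 73 regions of 73343 in the genome, 18 of them promoter and 55 distal, and 10 lay at a TSS of a member itself. A peak was called in 1 library only at 31 regions, of which 15 (48.4%) came from Tbx1-Cre Ctrl 1, the longest list, against 30.3% of all single-library regions of the genome. All 9 libraries shared 10 of the 73 regions (13.7%), against 18.6% of all regions. Of the 64 regions with a peak in any Tbx1-Cre library, 5 (7.81%) had a peak in all 3 Ctrl and in no cKO library, against 7.62% of all such regions. The opposite pattern was found at 0 of 64, against 0.0154%. The members' shares were thus near those of the genome, and the 5 regions are described below by gene. They lay at Gata2, Gata3 (2 regions), Gata4 and Zfpm1, and are called Ctrl-only regions, whatever Mesp1-Cre Ctrl held there.

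**Figure D3:**
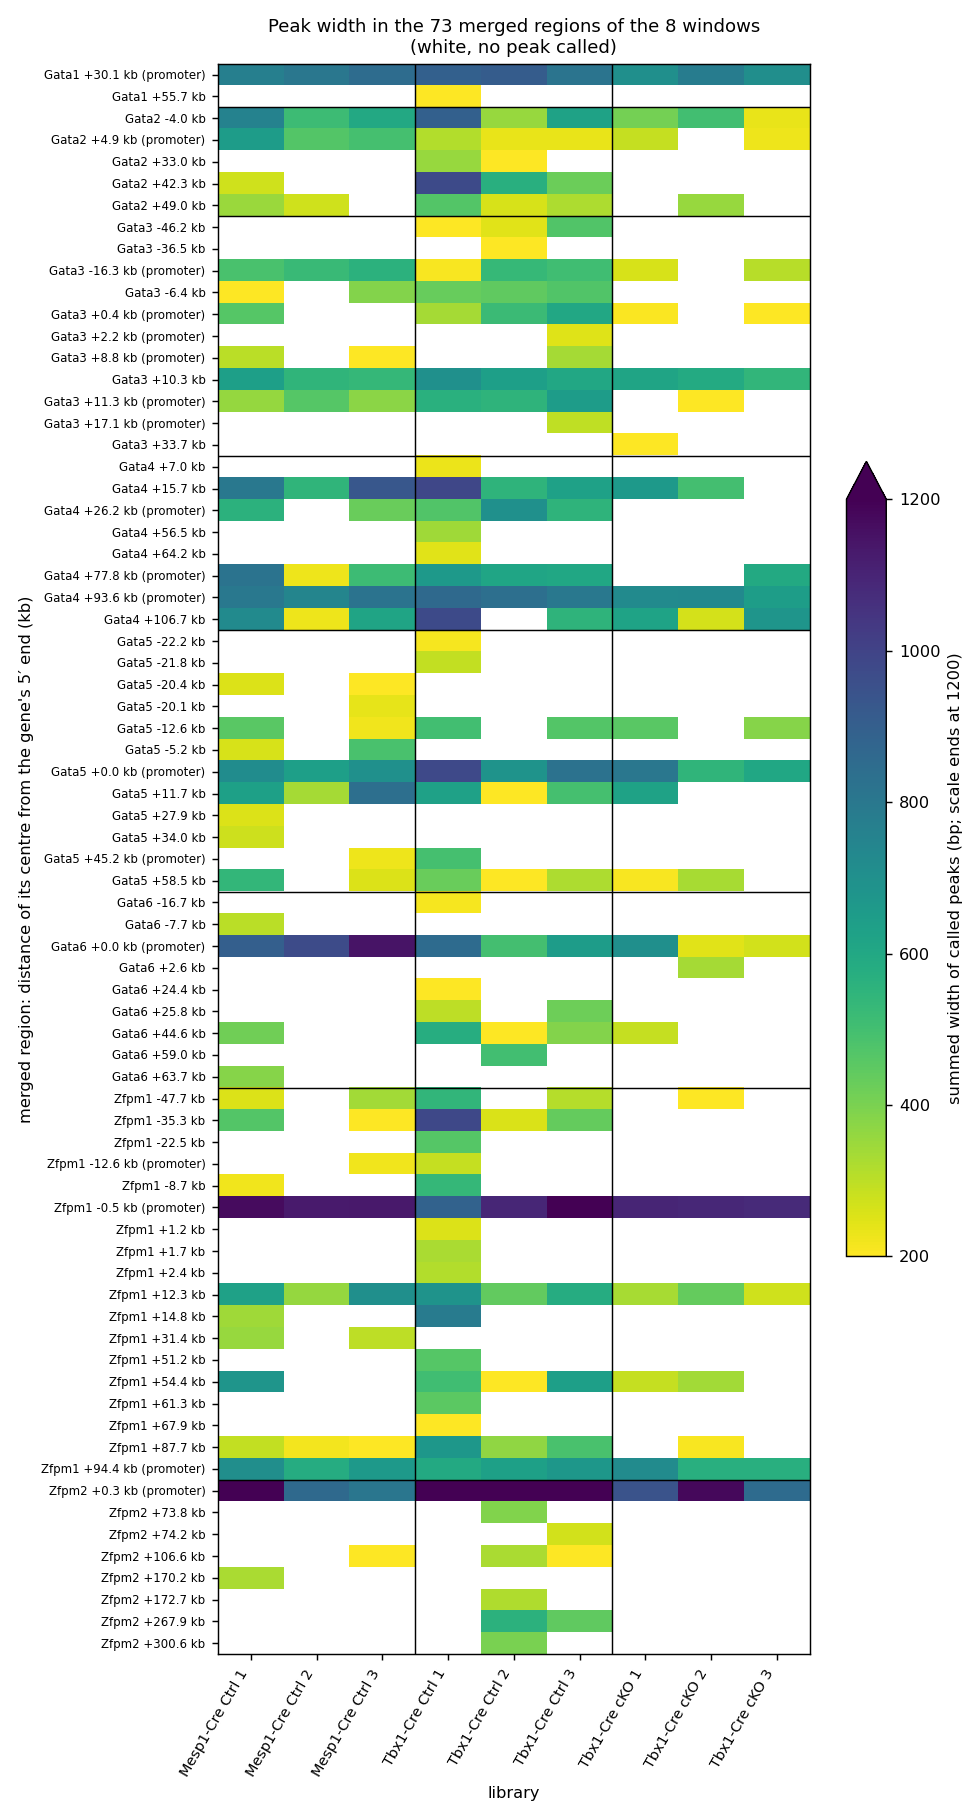
Summed width of the called peaks (colour, bp) in the 73 merged regions of the 8 windows (rows, with the distance of the region's centre from the 5′ end of the gene in kb, positive downstream, and promoter regions of any gene marked) in the 9 libraries (columns); white means that no peak was called. The cKO columns are the emptiest, with no peak at 46 of the 73 regions, against 11 for Tbx1-Cre Ctrl and 29 for Mesp1-Cre Ctrl.

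Gata1, the master regulator of red cell and megakaryocyte differentiation, lies on the minus strand at chrX:7536386-7555197 (ENSMUSG00000031162.8). No library held a peak within 1 kb of any of its 3 annotated TSS. Each of the 9 libraries held exactly 1 promoter peak in the window, and it lay 48 bp from the TSS of the neighbouring Hdac6, 30.1 kb from the 5′ end of Gata1 and beyond its 3′ end. The only distal peak was a 200 bp interval in Tbx1-Cre Ctrl 1. Gata1 was thus the member with the fewest peaks over the 9 libraries, and its own promoter was the only one in the family without a call.

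Gata2, required for blood stem cells and expressed in endothelium and cranial sensory tissue, lies on the plus strand at chr6:88143885-88157024 (ENSMUSG00000015053.8). Its window held 5, 6 and 5 peaks in Tbx1-Cre Ctrl, 2 in each cKO library and 4, 3 and 2 in Mesp1-Cre Ctrl, so that both other groups lay below Tbx1-Cre Ctrl. The difference was -3.33 peaks for cKO and -2.33 for Mesp1-Cre Ctrl (exact permutation p = 0.1 for each, adjusted p = 0.364 and 0.919). Of 2 annotated TSS, the upstream one at 88143885 had no peak in any library. The internal one at 88148658 had a peak in every library but cKO 2, with widths of 315, 232 and 234 bp in Tbx1-Cre Ctrl, 286, 0 and 225 in cKO and 647, 467 and 496 in Mesp1-Cre Ctrl, where 0 stands for no peak. The Mesp1-Cre Ctrl peaks there were all wider than the Tbx1-Cre Ctrl peaks.

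Of the distal regions at Gata2, 1 was called in all 9 libraries and 1 in all Tbx1-Cre Ctrl and no cKO library. The first, chr6:88139459-88140585, was intergenic with its centre 3988 bp upstream of the 5′ end. Its peaks were 895, 353 and 624 bp wide in Tbx1-Cre Ctrl, 408, 504 and 235 in cKO and 758, 513 and 598 in Mesp1-Cre Ctrl, and the 3 groups overlapped. The second, chr6:88185587-88186562, was intergenic at 42.3 kb, beyond the 3′ end of the gene, with peaks of 976, 568 and 426 bp in Tbx1-Cre Ctrl and a single Mesp1-Cre Ctrl peak of 274 bp. The nearest cKO peak lay 6173 bp away. The central 300 bases of both (mm9, plus strand, chr6:88139748-88140047 and chr6:88185995-88186294) are shown, because they contrast, at 1 gene, a region called in every library with one called in no cKO library. Capitals mark matches on either strand to the letters to which GATA factors bind best, AGATAA with its variant AGATAG, and likewise TGATAA with its variant TGATAG. The first region holds 2 matches and the second 0.
Gata2 upstream, all 9 libraries: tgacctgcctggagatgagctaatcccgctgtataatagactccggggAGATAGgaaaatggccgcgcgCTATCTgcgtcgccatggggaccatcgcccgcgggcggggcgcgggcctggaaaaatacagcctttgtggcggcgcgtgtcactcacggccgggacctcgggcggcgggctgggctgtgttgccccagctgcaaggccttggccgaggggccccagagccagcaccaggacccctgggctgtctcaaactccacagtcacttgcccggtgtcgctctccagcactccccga
Gata2 downstream, all Tbx1-Cre Ctrl and no cKO library: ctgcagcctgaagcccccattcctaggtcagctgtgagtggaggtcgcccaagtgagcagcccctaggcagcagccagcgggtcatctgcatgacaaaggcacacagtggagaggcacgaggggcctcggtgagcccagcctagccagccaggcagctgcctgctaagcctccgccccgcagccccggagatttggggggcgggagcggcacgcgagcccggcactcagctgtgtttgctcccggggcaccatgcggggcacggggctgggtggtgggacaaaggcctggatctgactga

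Gata2 is known to be autoregulated through an intronic enhancer with a composite of an E-box and a GATA site, CATCTG followed after any 8 bases by AGATAA. A search of both strands of the windows found 1 such composite within the Gata2 gene body, at chr6:88153179-88153198, 9294 bp from its 5′ end. No library held a peak there, and the nearest peak lay 4218 bp away. The only other match in a window lay in Zfpm2, chr15:40851294-40851313, 63928 bp from the nearest peak.

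Gata3, known from T cells, the inner ear, the parathyroid and the pharyngeal pouches, lies on the minus strand at chr2:9778705-9811661 (ENSMUSG00000015619.9) with 6 annotated TSS. The window held 7, 8 and 9 peaks in Tbx1-Cre Ctrl, 4, 2 and 3 in cKO and 6, 3 and 5 in Mesp1-Cre Ctrl. As at Gata2, both other groups lay below Tbx1-Cre Ctrl, by -5.0 and -3.33 peaks (exact permutation p = 0.1 for each, adjusted p = 0.364 and 0.919). Distal peaks numbered 4, 5 and 3 in Tbx1-Cre Ctrl, 2, 1 and 1 in cKO and 2, 1 and 2 in Mesp1-Cre Ctrl. Promoter peaks numbered 3, 3 and 6 in Tbx1-Cre Ctrl, 2, 1 and 2 in cKO and 4, 2 and 3 in Mesp1-Cre Ctrl. Of the 6 promoter regions of the window, 4 lay at TSS of Gata3.

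At the Gata3 promoter at the TSS 9800227 the Ctrl groups stood apart in width, and a peak was called in 1 cKO library only. Its region, chr2:9800049-9800773, had peaks of 564, 548 and 648 bp in Tbx1-Cre Ctrl, 360, 465 and 375 in Mesp1-Cre Ctrl, and in cKO a single peak of 200 bp, in replicate 2. Between 9800773 and 9800926 no peak was called, and the next region, chr2:9800926-9801649, classed as distal, was called in all 9 libraries. There the peaks were 698, 637 and 599 bp wide in Tbx1-Cre Ctrl, 615, 588 and 542 in cKO and 634, 547 and 533 in Mesp1-Cre Ctrl, and the groups overlapped. Within less than 2 kb, Gata3 thus held a region called throughout and one called in 1 of 3 cKO libraries. The 250 bases upstream of the TSS are shown because they lie in the region with 1 cKO call (RefSeq, GRCm38.p6, matched letter for letter to mm9 chr2:9800228-9800477, minus strand). They hold no GATA match.
Gata3 promoter: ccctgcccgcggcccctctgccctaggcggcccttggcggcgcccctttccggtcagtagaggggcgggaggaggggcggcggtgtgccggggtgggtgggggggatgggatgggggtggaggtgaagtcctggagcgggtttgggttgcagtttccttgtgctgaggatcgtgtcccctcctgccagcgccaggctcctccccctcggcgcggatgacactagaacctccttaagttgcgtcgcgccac

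Both distal Gata3 regions with the Ctrl-only pattern lay upstream of the gene. The nearer, chr2:9817783-9818361, was intergenic at 6.4 kb before the 5′ end, with peaks of 433, 444 and 470 bp in Tbx1-Cre Ctrl, 199 and 386 bp in Mesp1-Cre Ctrl 1 and 3, and the nearest cKO peak 6413 bp away. The farther, chr2:9857550-9858077, lay 46.2 kb upstream in an intron of Taf3, with peaks of 200, 244 and 471 bp in Tbx1-Cre Ctrl. No peak of either other group lay within 19 kb of it, the nearest being 19375 bp away in cKO and 19599 bp in Mesp1-Cre Ctrl. It was the only region of the windows with a peak in all Tbx1-Cre Ctrl and no Mesp1-Cre Ctrl library, 1 of 71 against 5.69% of all regions. No region had the opposite pattern, against 0.746%. The central 300 bases of both regions (mm9, plus strand, chr2:9817891-9818190 and chr2:9857743-9858042) are shown because they were called in every Tbx1-Cre Ctrl and in no cKO library. The farther one holds 3 GATA matches, a pair of them 1 base apart, and the nearer one none.
Gata3 at 6.4 kb upstream: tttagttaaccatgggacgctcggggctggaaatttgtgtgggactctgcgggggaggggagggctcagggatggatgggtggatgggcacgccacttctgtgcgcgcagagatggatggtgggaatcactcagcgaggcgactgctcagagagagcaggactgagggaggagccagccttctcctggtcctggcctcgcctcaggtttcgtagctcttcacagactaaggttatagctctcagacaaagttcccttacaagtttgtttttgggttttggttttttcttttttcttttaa
Gata3 at 46.2 kb upstream: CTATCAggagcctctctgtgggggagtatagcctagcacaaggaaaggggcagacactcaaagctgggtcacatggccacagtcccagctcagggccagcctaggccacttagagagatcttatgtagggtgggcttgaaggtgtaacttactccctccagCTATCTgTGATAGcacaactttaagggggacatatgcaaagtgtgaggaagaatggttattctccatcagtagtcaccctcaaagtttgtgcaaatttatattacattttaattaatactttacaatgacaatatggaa

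Gata4, a core cardiac transcription factor also active in foregut endoderm, lies on the minus strand at chr14:63817759-63890529 (ENSMUSG00000021944.8). The window held 8, 4 and 5 peaks in Tbx1-Cre Ctrl, 3 in each cKO library and 5, 4 and 5 in Mesp1-Cre Ctrl. The cKO libraries lay below both other groups, by -2.67 peaks against Tbx1-Cre Ctrl (exact permutation p = 0.1, adjusted p = 0.364), or -1.50 without Tbx1-Cre Ctrl 1, and by -1.67 against Mesp1-Cre Ctrl (exact permutation p = 0.1, adjusted p = 1.0). Promoter peaks numbered 3 in each Tbx1-Cre Ctrl library, 1, 1 and 2 in cKO and 3, 2 and 3 in Mesp1-Cre Ctrl. Besides Gata4, this count holds the promoters of the neighbours Fdft1, called in all 9 libraries, and Neil2, called in all 6 Ctrl libraries and in cKO 3 only. Distal peaks, at 5, 1 and 2 in Tbx1-Cre Ctrl and 2, 2 and 1 in cKO, overlapped.

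The promoter of Gata4 itself was the only member promoter with a peak in every Tbx1-Cre Ctrl library and in no cKO library. The region, chr14:63863859-63864752, lies at a cluster of 3 TSS from 63864085 to 63864108, with its centre 26.2 kb inside the longest annotated transcript. Peaks were 471, 699 and 549 bp wide in Tbx1-Cre Ctrl, and 559 and 427 bp in Mesp1-Cre Ctrl 1 and 3, with none in Mesp1-Cre Ctrl 2. The nearest cKO peak lay 9780 bp away. Among all promoter regions with a Tbx1-Cre peak, 3.09% showed this pattern, and in the 8 windows it was 1 of 18. An intronic region 10717 bp farther upstream, chr14:63874263-63875251, kept a peak in 2 of 3 cKO libraries, with 661, 498 and 0 bp in cKO, 989, 548 and 629 in Tbx1-Cre Ctrl and 798, 545 and 929 in Mesp1-Cre Ctrl. The 250 bases upstream of the outermost TSS of the cluster are shown because they sit in this region (mm9, minus strand, chr14:63864109-63864358). They hold no GATA match and are rich in G and C (70.8%).
Gata4 promoter: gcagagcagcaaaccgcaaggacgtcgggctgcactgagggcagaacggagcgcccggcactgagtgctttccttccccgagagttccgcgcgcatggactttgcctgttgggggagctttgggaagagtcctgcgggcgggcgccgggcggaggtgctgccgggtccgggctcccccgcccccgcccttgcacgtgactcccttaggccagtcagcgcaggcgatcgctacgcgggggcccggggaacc

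Gata5, expressed in endocardium and endoderm, lies on the minus strand at chr2:180059838-180069404 (ENSMUSG00000015627.4). Its window held 8, 3 and 4 peaks in Tbx1-Cre Ctrl, 4, 2 and 2 in cKO and 8, 2 and 8 in Mesp1-Cre Ctrl. It was the only member with a higher mean in Mesp1-Cre Ctrl than in Tbx1-Cre Ctrl, 6.0 against 5.0, but without Mesp1-Cre Ctrl 1 both means were 5.0, and the 3 groups overlapped (exact permutation p = 0.3 for cKO and 1.0 for Mesp1-Cre Ctrl against Tbx1-Cre Ctrl). The cKO mean differed from that of Tbx1-Cre Ctrl by -2.33 peaks, or by -0.833 without Tbx1-Cre Ctrl 1. The Gata5 promoter had a peak in all 9 libraries, of 981, 688 and 824 bp in Tbx1-Cre Ctrl, 805, 544 and 605 in cKO and 715, 634 and 699 in Mesp1-Cre Ctrl. Of 12 regions in the window 5 had no Tbx1-Cre Ctrl peak, more than at any other member. Among them, chr2:180074401-180074992, 5.2 kb upstream of Gata5, and chr2:180089711-180089980, 20.4 kb upstream, each had a peak in Mesp1-Cre Ctrl 1 and 3 and in no Tbx1-Cre library.

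Gata6, needed in extraembryonic and foregut endoderm and in the cardiac outflow tract, lies on the plus strand at chr18:11052508-11085633 (ENSMUSG00000005836.8). The window held 5, 4 and 3 peaks in Tbx1-Cre Ctrl, 2, 2 and 1 in cKO and 4, 1 and 1 in Mesp1-Cre Ctrl. The cKO libraries lay below Tbx1-Cre Ctrl by -2.33 peaks (exact permutation p = 0.1, adjusted p = 0.364), and the distal peaks did so by -2.0. The promoter had a peak in all 9 libraries, with its centre 10 bp from the TSS. It was 850, 500 and 649 bp wide in Tbx1-Cre Ctrl, 700, 246 and 270 in cKO and 897, 972 and 1148 in Mesp1-Cre Ctrl. The 500 bp of Tbx1-Cre Ctrl 2 are the summed width of 2 peaks. Mesp1-Cre Ctrl peaks were the widest, with every library above every library of the other groups. The distal region called most often, chr18:11096738-11097314, 44.6 kb from the 5′ end and beyond the gene, had peaks of 577, 200 and 384 bp in Tbx1-Cre Ctrl and 1 peak in each of the other groups.

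Zfpm1, which encodes FOG1, the partner of Gata1 in red cells and platelets, lies on the plus strand at chr8:124806039-124861146 (ENSMUSG00000049577.7). Its window held the most peaks of the family, 18, 6 and 7 in Tbx1-Cre Ctrl, 4, 6 and 3 in cKO and 10, 4 and 8 in Mesp1-Cre Ctrl. The difference between cKO and Tbx1-Cre Ctrl was -6.0 peaks, but the groups overlapped (exact permutation p = 0.2, adjusted p = 0.526), and the high mean came from Tbx1-Cre Ctrl 1, with 15 distal peaks against 4 and 5 in the other two. Without that library the difference was -2.17 peaks. Of 18 regions 7 were called in 1 library only. The Zfpm1 promoter was called in all 9 libraries and its groups overlapped in width, with peaks of 886, 1093 and 1197 bp in Tbx1-Cre Ctrl, 1095, 1090 and 1081 in cKO and 1171, 1127 and 1133 in Mesp1-Cre Ctrl.

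An intronic region of Zfpm1, chr8:124817938-124818729, 12.3 kb into the gene, was 1 of only 3 distal regions in the windows with a peak in all 9 libraries. Its peaks were 686, 441 and 581 bp wide in Tbx1-Cre Ctrl, 329, 437 and 274 in cKO and 626, 357 and 702 in Mesp1-Cre Ctrl, so that every cKO peak was narrower than every Tbx1-Cre Ctrl peak (exact permutation p = 0.1, adjusted p = 0.222). The central 300 bases (mm9, plus strand, chr8:124818222-124818521) are shown because it was the only distal site within a FOG gene called in every library, and hold 1 GATA match.
Zfpm1 intron, all 9 libraries: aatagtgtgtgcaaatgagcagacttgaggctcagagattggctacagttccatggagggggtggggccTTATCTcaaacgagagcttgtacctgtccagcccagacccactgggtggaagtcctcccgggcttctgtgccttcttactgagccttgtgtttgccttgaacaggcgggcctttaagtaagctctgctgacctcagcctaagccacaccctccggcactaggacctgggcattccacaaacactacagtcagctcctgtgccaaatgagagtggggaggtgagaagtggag
The region with the Ctrl-only pattern, chr8:124770276-124771257, lay 35.3 kb upstream, in an intron of Gm20388, an annotated gene that spans Zfpm1. It had peaks of 982, 258 and 438 bp in Tbx1-Cre Ctrl and of 466 and 199 bp in Mesp1-Cre Ctrl 1 and 3, and the nearest cKO peak lay 11795 bp away. Genes whose 9 distal counts were most like those of Zfpm1 were Micall2, Grik4, Cux1 and Pex14. Their sums of absolute differences over the 9 libraries were 6, 9, 10 and 10 peaks. In each of these genes Tbx1-Cre Ctrl 1, the longest list, held the most distal peaks, 13, 15, 15 and 13 in this order, beside 15 at Zfpm1.

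Zfpm2, which encodes FOG2, lies on the plus strand at chr15:40486588-40936138 (ENSMUSG00000022306.7), and with 549.6 kb had by far the longest window. It nevertheless held few peaks, 2, 6 and 4 in Tbx1-Cre Ctrl, 1 in each cKO library and 2, 3 and 2 in Mesp1-Cre Ctrl. The cKO libraries lay below both other groups, by -3.0 peaks against Tbx1-Cre Ctrl (exact permutation p = 0.1, adjusted p = 0.364) and by -1.33 against Mesp1-Cre Ctrl (exact permutation p = 0.1, adjusted p = 1.0). The only cKO peak was the promoter peak. Both peaks of Tbx1-Cre Ctrl 1 and all 3 of Mesp1-Cre Ctrl 2 lay in that same promoter region, so that these libraries held 1 region like each cKO library, and by regions the groups overlapped. All 7 distal regions were intronic, between 73.8 and 300.6 kb from the 5′ end, and none was called in more than 2 Tbx1-Cre Ctrl libraries or in any cKO library. The widest of them, chr15:40754141-40754697, had peaks of 557 and 444 bp in Tbx1-Cre Ctrl 2 and 3.

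The promoter of Zfpm2 had the greatest summed peak width of any region in the 8 windows in Tbx1-Cre Ctrl, 1486, 1385 and 1602 bp. In cKO it was 946, 1178 and 852 bp and in Mesp1-Cre Ctrl 1370, 860 and 807 bp. The cKO mean was 992 ± 168 bp and the Tbx1-Cre Ctrl mean 1490 ± 109 bp (SD, n = 3 each), and their difference was -499 bp (exact permutation p = 0.1, adjusted p = 0.222 over all regions called in the 6 Tbx1-Cre libraries). This was the largest difference in width among the 10 such regions of the windows.

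Over those 10 regions, peaks were narrower in cKO without overlap at 4, the promoters of Hdac6, Fdft1 and Zfpm2 and the Zfpm1 intron, against 45.0% of 14928 regions in the genome. They were wider without overlap at 0, against 0.0938%. The median difference was -161 bp over the 10 regions and -194 bp over all. The promoters of Zfpm1 and Zc3h18, its neighbour, differed by 30.0 and -14.0 bp (exact permutation p = 0.9 and 0.8). At the Zfpm2 promoter the cKO widths thus lay below all Tbx1-Cre Ctrl widths, and at the Zfpm1 promoter the groups overlapped. The difference between the genes was not tested.

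**Figure D4:**
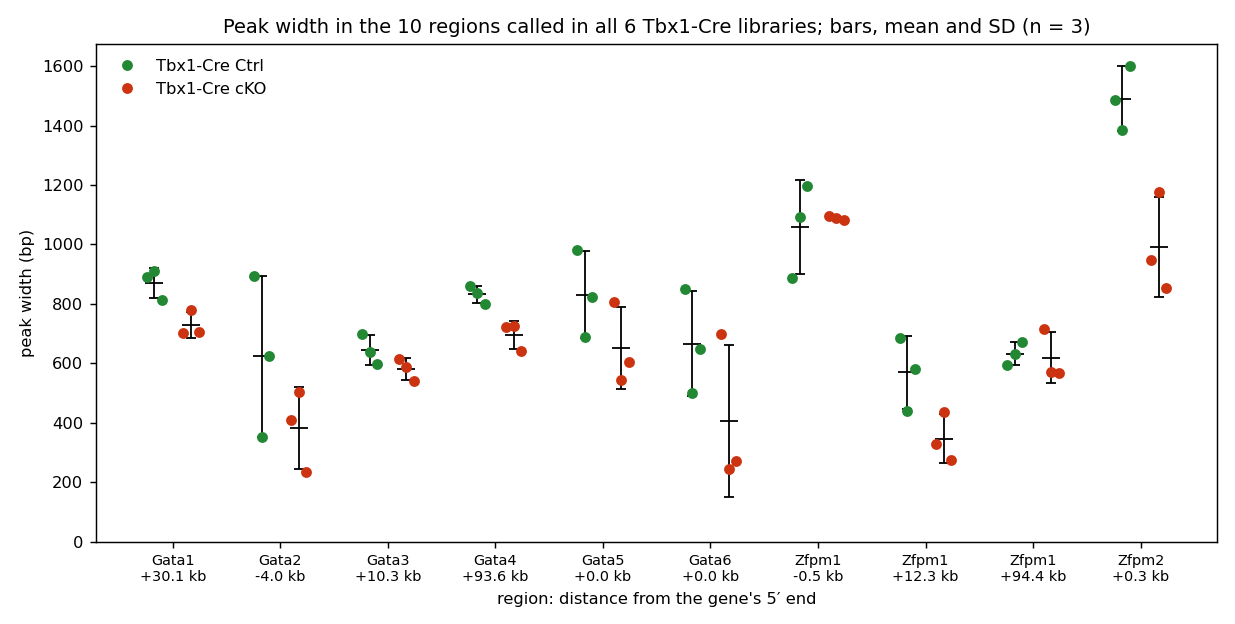
Peak width (y axis, bp) in the 10 regions of the 8 windows called in all 6 Tbx1-Cre libraries (x axis, named by the gene of the window and the distance from its 5′ end in kb); points are libraries and bars show mean and SD (n = 3). Several peaks of a library in a region are summed, as for Tbx1-Cre Ctrl 1 at the Zfpm2 promoter. There the cKO widths lie between 852 and 1178 bp and the Ctrl widths between 1385 and 1602 bp. At the Zfpm1 promoter all 6 lie between 886 and 1197 bp.

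The lineages were compared between the Ctrl groups. Mesp1-Cre Ctrl held fewer peaks without overlap at 2 of 8 members, Gata2 and Gata3, against 10.4% of all genes, and more at 0 of 8, against 0.433%. For distal peaks it was the same 2 genes, with 3, 2 and 1 against 4, 5 and 4 peaks at Gata2, and 11.1% of all genes (exact permutation p = 0.1, adjusted p = 0.867 for both). Neither gene stood apart with windows of 10 or 100 kb, with the widest 75% of the peaks, per 10000 peaks or with equal lists, and with equal lists Mesp1-Cre Ctrl was higher, by 1.33 peaks at Gata2 and 0.667 at Gata3. When several peaks in 1 merged region were counted once, 0 of 8 members stood apart, against 10.7% of all genes. Without Mesp1-Cre Ctrl 1 it was 3 of 8, Gata2, Gata3 and Gata6, against 28.7% of all genes, and the same 3 in distal peaks, against 27.6%. In width, among 17 regions of the windows called in all 6 Ctrl libraries, Mesp1-Cre Ctrl peaks were wider without overlap at 2, the promoters of Gata2 and Gata6, against 1.1% of 17709 regions in the genome. The mean width at the Gata2 promoter was 537 ± 96.6 bp in Mesp1-Cre Ctrl and 260 ± 47.4 bp in Tbx1-Cre Ctrl, and at the Gata6 promoter 1010 ± 129 bp and 666 ± 176 bp (SD, n = 3, exact permutation p = 0.1 and adjusted p = 0.445 for each). They were narrower at 3, against 21.4%, namely the Gata3 promoter at 9800227, the Zfpm2 promoter and a region 87.7 kb from the 5′ end of Zfpm1. The last lay beyond the 3′ end of Zfpm1, in an intron of Gm20388, an annotated gene that spans Zfpm1. At the Gata3 promoter the means were 400 ± 56.8 bp in Mesp1-Cre Ctrl and 587 ± 53.7 bp in Tbx1-Cre Ctrl (SD, n = 3, exact permutation p = 0.1, adjusted p = 0.445). Against Tbx1-Cre Ctrl, Mesp1-Cre Ctrl peaks were thus wider at the promoters of Gata2 and Gata6 and narrower at those of Gata3 and Zfpm2, and the median difference over all regions was -103 bp. Without Mesp1-Cre Ctrl 1 none of these calls could be lost. Peaks were wider at the same 2 promoters, against 1.35% of all regions, and narrower at 5 of 17 regions, against 41.8%. The 5 were the same 3, the Gata3 region called in all 9 libraries and the Neil2 promoter. The narrowest peak was 199 bp in the Mesp1-Cre Ctrl lists, which each kept 2 mitochondrial intervals, and 200 bp in the Tbx1-Cre Ctrl lists, which kept none. Whether the lists were made alike, and the part of this in the widths, was not tested.

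Against Mesp1-Cre Ctrl, cKO libraries held fewer peaks without overlap at 2 of 8 members, Gata4 and Zfpm2, as at 6.36% of all genes. Without Mesp1-Cre Ctrl 1, where neither call could be lost, no further member was added, against 7.06% of all genes. With several peaks in 1 merged region counted once it was Gata4 alone, against 6.71%. For distal peaks this held at 0 of the 7 members with a distal peak in either group, as at 6.86% of all genes. The 3 comparisons share libraries and are not independent of one another.

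The distal regions of the family were compared with all distal regions for the letters of the GATA and T-box motifs. In 300 bases around the mean midpoint, 25 of 55 distal regions (45.5%) held a match to the GATA letters given above on either strand, against 37.3% of all distal regions. At Gata5 6 of 10 distal regions and at Zfpm2 5 of 7 had a match, and at Gata2 1 of 4. The T-box letters AGGTGTG were found on either strand in 4 of 55 (7.27%), against 4.70% of all. Among promoter regions, 2 of 18 (11.1%) held a GATA match, against 16.0%. None of the 5 Ctrl-only regions held a T-box match. With these letters in 4.70% of all distal and 3.5% of all promoter regions, 5 regions are too few to read this count.

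The genes that work with GATA and FOG proteins were examined in lists chosen by function, by the same count of genes lower in cKO without overlap. The share was 0 of 5 GATA-type zinc finger relatives, 3 of 15 cardiac partners and targets and 7 of 12 blood and endothelial partners. It was 3 of 7 endoderm partners and 5 of 14 corepressor partners of FOG. Over all genes it was the 27.3% given above, and none of the listed genes was higher. These counts used the deposited peak lists of unequal length, and were not repeated per 10000 peaks or with equal lists. Under those settings the members' own calls became 0 of 8, and the share of all genes 5.17% and 1.28%. The median difference was -1.33 peaks for the relatives and for the cardiac list, as over all genes, -3.50 for the blood and endothelial list, -1.67 for the endoderm list and -3.17 for the corepressors. Tal1, the blood partner of Gata1 and Gata2, held 6, 7 and 7 peaks in Tbx1-Cre Ctrl, 3 in each cKO library and 8, 4 and 6 in Mesp1-Cre Ctrl. In the same list, Lmo2 held 4, 3 and 3 peaks in Tbx1-Cre Ctrl and 3, 4 and 3 in cKO. Ldb1 held 7 in each Tbx1-Cre Ctrl library and 8, 7 and 6 in cKO, so that the groups overlapped at both. Erg, an endothelial ETS factor, held 8, 6 and 11 peaks in Tbx1-Cre Ctrl, 3, 3 and 0 in cKO and 5, 2 and 3 in Mesp1-Cre Ctrl. Hand2, a cardiac partner of Gata4, held 7 peaks in each Tbx1-Cre Ctrl library, 4, 5 and 3 in cKO and 8, 7 and 8 in Mesp1-Cre Ctrl. Mta2, a NuRD subunit, held 12, 10 and 10 peaks in Tbx1-Cre Ctrl, 8, 7 and 7 in cKO and 10, 8 and 9 in Mesp1-Cre Ctrl. Trps1, a GATA-type repressor, held 7, 10 and 10, 8, 3 and 2, and 8, 6 and 9 peaks in the same order, and its groups overlapped.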

How the data were processed

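ATAC-seq peak lists of 9 mouse libraries, 3 per group, were used. The deposited values, 1 list per library, are the start and end of each interval in bp, without scores. In the study's methods the authors trimmed reads with cutadapt, aligned them to mm9 with Bowtie2 2.3.4.3, kept unique concordant pairs, removed PCR duplicates and mitochondrial reads, and called peaks in each library with MACS2. Reads were not used here, so that depth is unknown and no counting interval can be given. The narrowest peak was 199 bp in Mesp1-Cre Ctrl lists and 200 bp in Tbx1-Cre lists, and the former each kept 2 mitochondrial intervals. Against the NCBIM37 (mm9) reference, 5 peaks of every list extended beyond a chromosome, by at most 247 bp. The study lists the embryos pooled for each library, except that the list of Mesp1-Cre Ctrl 1 could not be matched to an entry, and describes its replicates as biological. The p-values measure the spread between these pools.

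Groups were taken from the labels. Genes and TSS came from GENCODE vM1 on NCBIM37. Peaks were counted by midpoint in the gene body plus 50 kb, and promoter peaks lay within 1 kb of any TSS. Means were compared by the exact two-sided permutation test (20 relabellings), adjusted over all genes or regions. Peaks were merged at 1 bp of overlap. Named were all 8 genes, and regions called in each of the 3 libraries of a group and none of another, or distal and in all 9. Regions at TSS or in widths were described as well. Alternatives were windows of 10 and 100 kb, any overlap, the 19772 widest peaks per library, the widest 75%, counts per 10000 peaks, other promoter definitions, and leaving out each library. Counting several peaks of a library in 1 merged region once, and leaving Mesp1-Cre Ctrl 1 out over all genes and regions, were chosen after seeing the data. The blood marker list is not reported here. Members and lists were chosen with earlier results of these data known, and the width comparison between the Ctrl groups was added after the first results. Python 3.11.15, numpy 2.4.6, pandas 2.3.3, scipy 1.17.1 and matplotlib 3.10.9 were used, and the code was tested on simulated data.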

Additional observations from a re-analysis of the deposited data

How the results depend on the processing

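The summed difference between cKO and Tbx1-Cre Ctrl, -25.0 peaks, was -14.3 with windows of 10 kb, -34.0 with 100 kb, -17.7 with the widest 75% of the peaks, -1.60 per 10000 peaks and -0.333 with equal lists. The 5 members without overlap became 3 with 10 kb, 3 with the widest 75%, and 0 per 10000 peaks and with equal lists. Between the Ctrl groups the sum, -12.7 peaks, became 2.67 with equal lists and 0.042 per 10000 peaks, and the 2 members became 0 under each of 10 kb, 100 kb, the widest 75%, equal lists and per 10000 peaks. Between cKO and Mesp1-Cre Ctrl the sum, -12.3, became -3.00 with equal lists and -1.64 per 10000 peaks, and the 2 members became 1 with 100 kb and with the widest 75%, and 0 with equal lists and per 10000 peaks. The 5 regions of all Tbx1-Cre Ctrl and no cKO library became 0 with equal lists. The cause of these shifts was not tested. Any overlap in place of the midpoint changed none of the sums or counts of members.

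Leaving out each library in turn gave sums of -27.8 to -19.3, -17.2 to -7.00 and -17.3 to -7.83 peaks for the 3 comparisons in this order. The members without overlap were 5 to 6, 2 to 3 and 2 to 5, counts that leaving out a library cannot lower. The 5 members between cKO and Mesp1-Cre Ctrl were reached without Mesp1-Cre Ctrl replicate 2, and 3 members without replicate 3. The sum between the Ctrl groups was -7.00 without Tbx1-Cre Ctrl replicate 1 and -7.67 without Mesp1-Cre Ctrl replicate 2, and that between cKO and Mesp1-Cre Ctrl was -7.83 without Mesp1-Cre Ctrl replicate 1. The Ctrl-only regions numbered 6 to 8, and 8 without cKO replicate 2, and this count could not fall either.

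Differences turned positive as follows. With equal lists, cKO was higher than Tbx1-Cre Ctrl at Gata2 by 0.667 peaks (0.333 distal), Gata5 by 1.0 (1.0 distal) and Gata6 by 0.333, and per 10000 peaks at Gata1 by 0.139, Gata4 by 0.0623 and Gata5 by 0.0169. With equal lists, Mesp1-Cre Ctrl was higher than Tbx1-Cre Ctrl at Gata2 by 1.33 peaks (0.333 distal), Gata3 by 0.667 (0.333 distal) and Gata4 by 0.333, and per 10000 peaks at Gata1 by 0.0355, Gata4 by 0.258 and Zfpm1 by 0.00746. Against Mesp1-Cre Ctrl, cKO was higher at Gata6 by 0.333 with equal lists and 0.121 per 10000 peaks. Of promoter differences alone, 5 turned per 10000 peaks and 2 with equal lists between cKO and Tbx1-Cre Ctrl. With several peaks in 1 merged region counted once, the members without overlap were 4, 0 and 1 in the 3 comparisons.

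Libraries of different groups share replicate numbers. Between same-numbered cKO and Tbx1-Cre Ctrl libraries the deviations over genes had r = 0.363, 0.027 and 0.248. The highest r with a different number was -0.233, 0.00824 and 0.339, so the same number was closer for replicates 1 and 2 but not for 3. These values do not decide whether the numbers pair the samples, and the test per gene did not use them. With the replicate block, an exact sign-flip permutation gave at best p = 0.25, the smallest that 3 pairs allow, and 7 of 10 regions were narrower in cKO in each pair, against 4 without overlap.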
